A study of Mus musculus with 20 samples.

Results

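IL-2-REH, a partial agonist of the IL-2 receptor, was followed from 90 min to 4 hr in mouse CD8+ T cells by comparing the single library made at 4 hr with the single library made at 90 min. These 2 libraries are 2 of the 20 in the series. The whole experiment measured polyadenylated RNA in CD8+ T cells and in regulatory T cells (Tregs). Cells were either unstimulated (0 hr) or stimulated ex vivo with cytokine at 200 nM (IL-2 or the mutein) for 90 min or 4 hr. The experiment addresses how the response to the weakened cytokine compares with that to IL-2. The series holds no unstimulated library at 90 min or 4 hr. For changes over time, the cytokine and the time in culture therefore cannot be told apart. The CD8+ T cells were isolated with a kit from spleen and lymph nodes of mice that the methods call C57BL/6J and the sample records C57BL/6N, and each of their 5 groups has 1 library. The Tregs came from B6-Foxp3EGFP mice, in which GFP marks Foxp3+ cells for sorting, and each of their 5 groups has 3 libraries. Neither source says how many mice gave the cells of a CD8+ library, so no value below has a replicate error for CD8+ T cells and no test was possible for them.

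IL-2 signals through the IL-2Rβ chain and the common γ chain, which carry JAK1 and JAK3, and the kinases phosphorylate STAT5, which enters the nucleus and drives genes for survival, growth and cytotoxic function. IL-2-REH carries substitutions on the face of IL-2 that contacts the common γ chain, so receptor pairs form less efficiently. Early cytokine responses commonly hold short-lived transcripts of transcription factors and feedback inhibitors, and genes of metabolism, ribosome production and effector function follow.

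The 5 CD8+ libraries held between 38201667 reads (IL-2-REH at 90 min) and 45189835 reads on annotated genes, with 44977546 in the 4 hr IL-2-REH library. The 15 Treg libraries held between 20201392 and 63903764. Ratios were taken as log2 of RPKM + 1 (read counts divided by exon length and library size) at 4 hr over 90 min. The genes tested were the 10021 whose RPKM averaged 1 or more over the 5 CD8+ libraries. The cells carried the markers of their label in both libraries. Cd8a was at 103 and 130 RPKM and Cd3e at 143 and 169 RPKM. Among 7 markers of CD4+ T cells and Tregs, 3 were under 1 RPKM in both libraries, Cd4 and Foxp3 among them. Ikzf2 was at 6.01 and 5.64, Ctla4 at 5.09 and 4.26 and Il2ra at 2.81 and 3.20 RPKM. The sum of CD8+ T cell markers was 2379 RPKM unstimulated, 1133 at 90 min and 1465 at 4 hr of IL-2-REH. NK cell markers summed to 249.4, 62.9 and 57.8 RPKM, of which Nkg7 gave 204.3, 40.5 and 31.6 RPKM. With IL-2, the NK sum was 101.7 and 164.5 RPKM. Markers of macrophages and monocytes summed to 57.4 RPKM in unstimulated cells, 26.8 at 90 min and 19.2 at 4 hr of IL-2-REH. Of their 13 genes, 10 were lower at 4 hr, where 42.1% of all genes tested were. With IL-2, the same sum went from 28.2 to 16.3 RPKM. The sums of B cell markers (4.19 and 5.79 RPKM) and erythroid markers (7.89 and 6.98 RPKM) were small at both times. In bulk RNA, fewer cells of a type and less RNA per cell cannot be told apart.

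Most genes stayed close to their 90 min level. The median ratio was 0.06, 84.3% of genes lay within 0.5 of 0, and the range from the 5th to the 95th percentile was -0.50 to 0.67. A ratio above 1 was found for 105 genes (1.05% of those tested) and a ratio below -1 for 84 genes (0.838%). These shares are the background for each count of list members past the threshold with IL-2-REH. After each library was centred on its median, 80 genes were above 1 and 102 below -1, so the balance of higher and lower genes depends on the scaling. The 95% interval of the read ratio excluded no change for 105 of the 105 and 83 of the 84 genes, the exception being Snord42b with 6 and 1 reads. These intervals cover counting error only, and they are wide for genes with few reads, such as Mir7068 with 0.46 to 8.67 on the log2 scale. The only replicate spread in the series is that of Tregs, in which 2 libraries of the same IL-2-REH group differed by more than 1 in 50 to 640 genes, with a median of 412.5 over 6 pairs, against 189 genes between the CD8+ libraries. Those Treg libraries carry different replicate numbers, whereas both CD8+ libraries carry the number 1, so the counts are not directly comparable. Just inside the threshold lay Rdm1 at 1.0 and Fam69a at -1.0, and just outside it Mvb12a at 0.999 and Prkcb at -0.997.

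Most of the genes with the largest decreases had been far above the unstimulated level at 90 min and were back near it at 4 hr. Igfbp4, Nr4a1, Nr4a2, Rrp12 and Fosl2 were exceptions. Of all 84 lower genes, 39 were more than 1 above the unstimulated library on the log2 scale at 90 min. Of these 39, 36 were within 1 of it at 4 hr. At 4 hr, 27 of the 84 were more than 1 below it. These comparisons share the 90 min library with the ratio that chose the genes. Ramp3, a partner protein that sets the ligand specificity of calcitonin-family receptors, was at 2.48 RPKM in unstimulated cells, 21.3 and 2.52 RPKM at 90 min and 4 hr of IL-2-REH, and 18.8 and 2.21 RPKM with IL-2. Its ratio was -2.66 under IL-2-REH and -2.62 under IL-2. Both 90 min libraries were high and the other three were alike. Spsb1, a SOCS-box adaptor of a ubiquitin ligase, had the same shape, with 1.22 RPKM unstimulated, 9.96 and 1.25 RPKM with IL-2-REH, and 12.2 and 1.60 RPKM with IL-2, and its ratio was -2.28. Pmepa1, a membrane protein that restrains SMAD signalling, was at 2.08 RPKM unstimulated, 19.2 and 3.82 RPKM with IL-2-REH, and 24.7 and 7.03 RPKM with IL-2, for a ratio of -2.07. For Pmepa1, the 4 hr level with IL-2-REH lay below that with IL-2, although both remained above the unstimulated level.

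**Figure D1:**
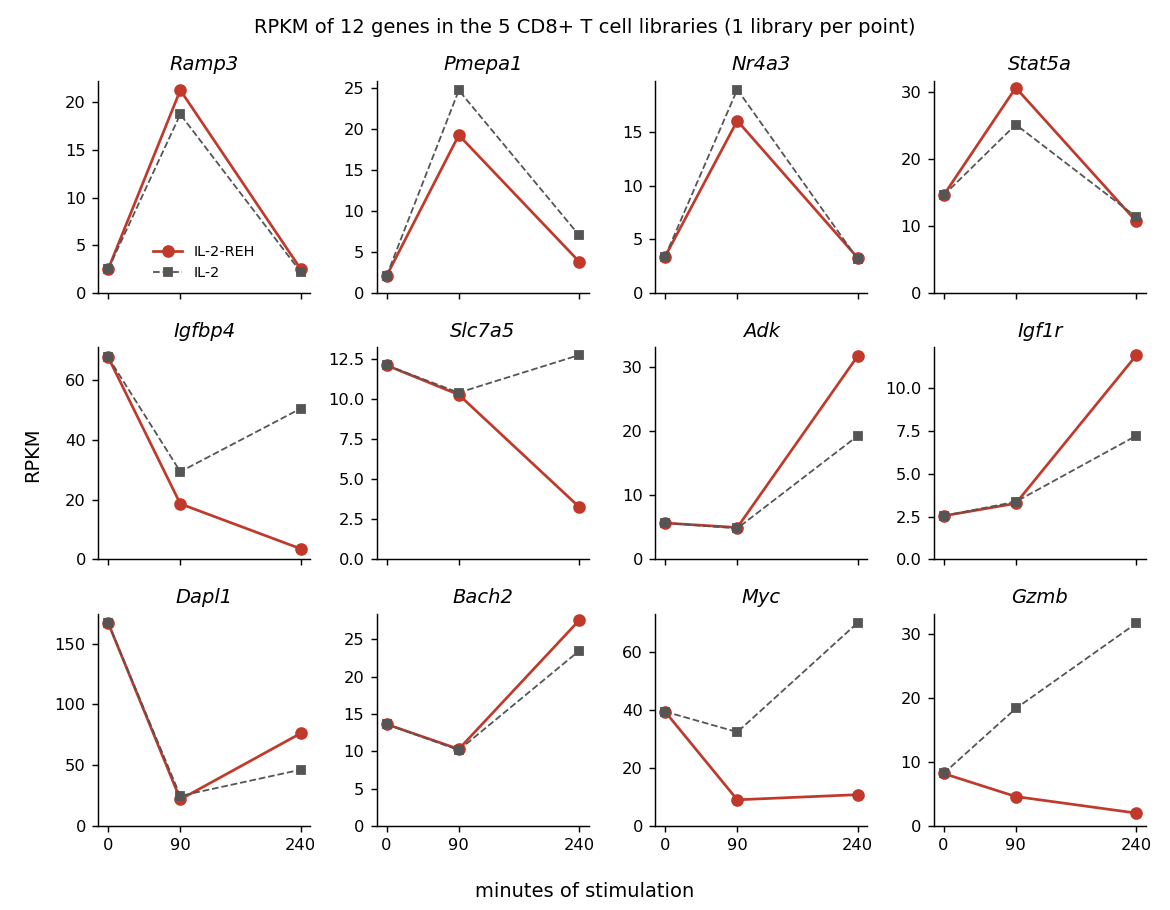
RPKM (vertical axes, from 0) of 12 genes after 0, 90 and 240 min, with IL-2-REH as red circles and IL-2 as grey squares. Each point is 1 library, and both lines start from the same unstimulated library. Ramp3, Pmepa1, Nr4a3 and Stat5a peaked at 90 min with both cytokines, Adk and Igf1r were high at 4 hr alone, and Igfbp4, Slc7a5, Myc and Gzmb took separate courses with IL-2-REH and IL-2.

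The enzyme and chromatin genes of this group behaved alike. Odc1, the rate-limiting enzyme of polyamine synthesis, was at 32.9 RPKM unstimulated, 104 and 36.7 RPKM with IL-2-REH, and 96.8 and 27.9 RPKM with IL-2, and its ratio was -1.48. The histone demethylase gene Kdm2b went from 6.78 RPKM unstimulated to 38.2 and 12.6 RPKM with IL-2-REH and to 30.1 and 6.72 RPKM with IL-2, for a ratio of -1.53. Less abundant genes also returned from a 90 min maximum. Neto2, an auxiliary subunit of kainate receptors, was at 0.369 RPKM unstimulated and 4.30 and 0.910 RPKM with IL-2-REH, and Ppp2r3a, a regulatory subunit of protein phosphatase 2A, at 0.388 RPKM and 6.08 and 1.56 RPKM. Both had a ratio of -1.47.

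All 3 NR4A genes, which encode orphan nuclear receptors that are induced within minutes of stimulation, were lower at 4 hr. The 250 bases before 1 RefSeq start of each gene (GRCm38.p6) are shown because the family moved together. Each occurrence of TGACG on either strand, the core of the cAMP response element, is in capitals. For Nr4a1 and Nr4a3 that start lies inside the annotated gene, which begins at position 101253902 and 48045078.
Nr4a1, chr15:101266596-101266845, plus strand: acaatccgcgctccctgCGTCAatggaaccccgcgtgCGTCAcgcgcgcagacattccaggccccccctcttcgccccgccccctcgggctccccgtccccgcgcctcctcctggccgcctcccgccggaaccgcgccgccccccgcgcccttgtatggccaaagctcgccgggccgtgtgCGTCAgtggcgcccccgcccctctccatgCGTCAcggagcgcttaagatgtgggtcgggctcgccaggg
Nr4a2, chr2:57124004-57124253, minus strand: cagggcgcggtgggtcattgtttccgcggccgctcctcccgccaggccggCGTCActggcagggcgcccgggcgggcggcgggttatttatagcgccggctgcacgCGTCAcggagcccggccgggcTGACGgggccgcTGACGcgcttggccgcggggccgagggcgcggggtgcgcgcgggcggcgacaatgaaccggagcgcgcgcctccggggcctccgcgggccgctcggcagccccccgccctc
Nr4a3, chr4:48045055-48045304, plus strand: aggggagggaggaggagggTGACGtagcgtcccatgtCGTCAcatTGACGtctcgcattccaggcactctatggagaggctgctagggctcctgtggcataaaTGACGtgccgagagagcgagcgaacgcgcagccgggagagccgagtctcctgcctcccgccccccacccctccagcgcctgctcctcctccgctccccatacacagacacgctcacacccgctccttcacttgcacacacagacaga

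Each of these windows holds 4 occurrences, and none (0) holds the full element TGACGTCA. In all, TGACG was present in 23 of 75 windows of lower genes (30.7%), in 18 of 93 of higher genes (19.4%), in 28.9% of the 9392 windows of all genes tested and in 17.8% of all 32851 promoters in the table. A gene with several RefSeq starts has several windows. Counted by gene, TGACG was present for 18 of 52 lower genes, 18 of 71 higher genes and 2472 of 7430 genes tested. The share among lower genes was thus near that of all genes tested. The full element, a subset of the TGACG matches, was in 3 of the 75 windows (4.00%), against 2.86% of the windows of genes tested. The STAT5 motif TTCNNNGAA was present in 8 windows of lower genes (10.7%), 7 of higher genes (7.53%) and 6.17% of genes tested. A match in these letters is a description of the window.

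Nr4a3 was at 3.40 RPKM unstimulated, 16.1 and 3.28 RPKM at 90 min and 4 hr of IL-2-REH, and 19.0 and 3.17 RPKM with IL-2, for a ratio of -1.99. Nr4a1 was at 26.8 RPKM unstimulated, 22.1 and 5.82 RPKM with IL-2-REH, and 20.9 and 4.79 RPKM with IL-2, for a ratio of -1.76. Nr4a2 went from 8.18 RPKM to 5.85 and 1.48 RPKM with IL-2-REH and to 5.27 and 1.29 RPKM with IL-2, for a ratio of -1.47. The family differed in its starting point, because only Nr4a3 was above the unstimulated library at 90 min, while Nr4a1 and Nr4a2 were already high in unstimulated cells and were below them at 4 hr. The cytokines gave like levels at both times for each of the 3 genes.

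Of the 28 immediate early genes, 9 were below -1, where 0.838% of all genes tested were, and none (0) was above 1. In all, 24 were below 0, where 42.1% of all genes were. Their median was -0.71 for IL-2-REH and -0.73 for IL-2. Beside the NR4A genes, those past the threshold were the AP-1 genes Fosl2 (-1.58) and Fosb (-1.18), the zinc finger factors Egr2 (-1.18) and Egr3 (-1.17), the phosphatase Dusp2 (-1.33) and the stress gene Gadd45b (-1.01). Fosl2 was at 14.3 RPKM unstimulated, 23.2 and 7.08 RPKM with IL-2-REH, and 21.7 and 9.86 RPKM with IL-2. Fosb was at 48.4 RPKM in unstimulated cells and at 2.42 and 0.512 RPKM with IL-2-REH. Fos followed the same course at 116 RPKM and then 3.20 and 1.38 RPKM, with a ratio of -0.82 that did not reach the threshold. The unstimulated library was therefore the highest for several members, and the list's median against that library was -0.80 at 90 min and -1.69 at 4 hr, in comparisons that share the unstimulated library. The list of NF-kB feedback genes gave 2 of 16 below -1, against the same 0.838% of all genes, and had a median of -0.31. The 2 were the inhibitor Nfkbid at -1.11 and the activation marker Cd69 at -1.09.

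Genes of Notch and TGF-β signalling were the other list with many lower members. Of 18, 6 were below -1, where 0.838% of all genes tested were, and none (0) was above 1. Their median was -0.37 under IL-2-REH and -0.57 under IL-2. The 6 were Pmepa1, the Notch feedback gene Nrarp (-1.54), the SMAD corepressor genes Tgif1 (-1.33), Skil (-1.30) and Ski (-1.15), and the ubiquitin ligase gene Smurf2 (-1.05). Tgif1 was at 25.3 RPKM unstimulated, 112 and 43.9 RPKM with IL-2-REH, and 81.1 and 19.7 RPKM with IL-2. Skil was at 11.2 RPKM unstimulated, 59.2 and 23.4 RPKM with IL-2-REH, and 56.2 and 19.2 RPKM with IL-2. All 6 are negative regulators of these pathways, and for Tgif1 and Skil the 4 hr level with IL-2-REH was above that with IL-2. The receptors Notch1 (0.03), Tgfbr1 (-0.07) and the signal carriers Smad2 (-0.08) and Smad3 (-0.06) were near 0, whereas the receptor Tgfbr2 (-0.44) and the Notch effector Rbpj (-0.75) were lower without reaching the threshold.

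Within the receptor pathway itself, the transcription factor gene Stat5a peaked at 90 min. It was at 14.5 RPKM unstimulated, 30.6 and 10.7 RPKM with IL-2-REH, and 25.1 and 11.3 RPKM with IL-2, for a ratio of -1.43. Its paralog Stat5b, with which it shares sequence, also peaked at 90 min, at 28.1, 56.3 and 38.3 RPKM, but stayed above the unstimulated level at 4 hr, and its ratio was -0.54. The receptor chain Il2rb was at 122 RPKM unstimulated, 149 and 87.5 RPKM with IL-2-REH, and 188 and 186 RPKM with IL-2, so that its ratio was -0.76 under IL-2-REH and -0.01 under IL-2. The common γ chain gene Il2rg (0.19) and the kinases Jak1 (0.27) and Jak3 (-0.12) were near 0, and Stat5a alone of the 9 genes of this list was past the threshold.

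Among 24 IL-2 and STAT5 target genes, 3 were below -1, where 0.838% of all genes tested were, and none (0) above 1. The median was -0.17 under IL-2-REH and 0.17 under IL-2. The 3 were Pmepa1, the cAMP-responsive factor Crem (-1.62) and the membrane protein gene Emp1 (-1.04). Crem was at 2.12 RPKM unstimulated, 18.5 and 5.31 RPKM with IL-2-REH, and 25.9 and 10.5 RPKM with IL-2. The genes that the study names for CD8+ T cells stayed within 1 of 0, except Gzmb with a pseudocount of 0.1 or with TMM-scaled CPM. The cell cycle kinase Cdk6 was at 4.69 RPKM unstimulated, 2.95 and 2.47 RPKM with IL-2-REH, and 6.63 and 25.2 RPKM with IL-2, and its ratio was -0.19 under IL-2-REH and 1.78 under IL-2. Myc, a driver of growth, was at 39.4 RPKM unstimulated, 8.98 and 10.8 RPKM with IL-2-REH, and 32.3 and 70.0 RPKM with IL-2, with ratios of 0.24 and 1.09. Between 90 min and 4 hr, then, Cdk6 and Myc moved past 1 with IL-2 and little with IL-2-REH. The cytotoxic granule gene Gzmb was at 8.19 RPKM unstimulated, 4.58 and 2.0 RPKM with IL-2-REH, and 18.3 and 31.7 RPKM with IL-2, and its ratio of -0.90 stood against 0.76. With a pseudocount of 0.1 the ratio of Gzmb was -1.16, and after centring of the libraries it was -0.96. With TMM-scaled CPM, where a prior count of 2 replaces the pseudocount of 1 RPKM, it was -1.26. The survival gene Bcl2 was at 30.4 RPKM, 20.4 and 13.4 RPKM, and 67.5 and 98.5 RPKM in the same order, with ratios of -0.57 and 0.54. Lta was at 3.21 RPKM unstimulated, 4.33 and 4.37 RPKM with IL-2-REH, and 33.4 and 43.4 RPKM with IL-2, with ratios of 0.01 and 0.37. Tnf was at 2.03 RPKM, 2.55 and 1.77 RPKM, and 14.9 and 20.8 RPKM in the same order, with ratios of -0.36 and 0.46. Ifng was at 7.89 RPKM, 0.905 and 0.561 RPKM, and 3.25 and 1.70 RPKM, with ratios of -0.29 and -0.66. The IL-2-REH ratio of Ifng, from levels under 1 RPKM, was -0.61 with a pseudocount of 0.1 and -0.73 with TMM-scaled CPM. Without a pseudocount it was -0.69, with an interval of counting error from -1.25 to -0.14. At the pseudocount of 1, none (0) of the 16 effector genes tested was past the threshold, and their median was -0.15, against 0.19 with IL-2.

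Of the genes past the threshold, 5 lower and 2 higher genes had the opposite sign with IL-2. The largest was Igfbp4, a secreted binding protein for insulin-like growth factors that marks naive T cells (chromosome 11, 99040005 to 99052655). It was at 67.7 RPKM unstimulated, 18.6 and 3.57 RPKM with IL-2-REH, and 29.3 and 50.5 RPKM with IL-2, so that its ratio was -2.10 under IL-2-REH and 0.76 under IL-2. Both 90 min libraries were below the unstimulated library, and only the IL-2-REH library was lower again at 4 hr. Slc7a5, the light chain of the large neutral amino acid transporter, was at 12.1 RPKM unstimulated, 10.3 and 3.27 RPKM with IL-2-REH, and 10.4 and 12.8 RPKM with IL-2. Its ratio was -1.40 under IL-2-REH and 0.27 under IL-2. The folate enzyme gene Mthfd1 was at 15.4 RPKM, then 7.48 and 3.06 RPKM with IL-2-REH, and 8.61 and 9.91 RPKM with IL-2, for ratios of -1.06 and 0.18. The remaining lower genes with opposite signs were the small nucleolar RNAs Snora34 and Snord73a, with at most 20 reads in either IL-2-REH library. The higher ones were Fam46a (1.04 and -0.27), a poly(A) polymerase gene, and Mir7068, with 1 and 11 reads. The monocyte and T cell surface gene Ly6c2 was at 309 RPKM unstimulated, 91.2 and 41.8 RPKM with IL-2-REH, and 125 and 124 RPKM with IL-2, for ratios of -1.11 and -0.01. The neighbouring Ly6c1 (-1.06 and -0.05) had like ratios, and reads may be split between these near-identical genes.

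Nearly all genes of ribosome biogenesis had a ratio below 0. Of 32 members, 30 were below 0, where 42.1% of all genes were. Below -1 were 2, where 0.838% of all genes were, and none (0) was above 1. Their median was -0.37, which is -0.42 relative to the median of all genes, and 0.07 with IL-2. For 28 of the 32 the change was lower with IL-2-REH than with IL-2, against 25.6% of all genes. Rrp12, an assembly factor of both ribosomal subunits, was at 9.48 RPKM unstimulated, 8.47 and 2.23 RPKM with IL-2-REH, and 8.78 and 5.52 RPKM with IL-2, for a ratio of -1.55. Utp20, part of the small-subunit processome, had a ratio of -1.09, and Mybbp1a, a nucleolar MYB-binding protein, was at 49.5 RPKM, then 33.6 and 17.6 RPKM with IL-2-REH, and 36.1 and 37.1 RPKM with IL-2. The abundant nucleolar genes Ncl (-0.12) and Npm1 (-0.09) were near 0. The 78 genes of cytosolic ribosomal proteins had a smaller shift, with 69 below 0 and none (0) past the threshold. Their median was -0.08, which is -0.14 relative to all genes, and -0.19 with IL-2. In Tregs, the medians of the biogenesis genes in 3 same-numbered pairs of libraries were -0.29, -0.16 and -0.08. Of the 32 genes, 16 were lower in every pair, against 20.2% of all genes.

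**Figure D2:**
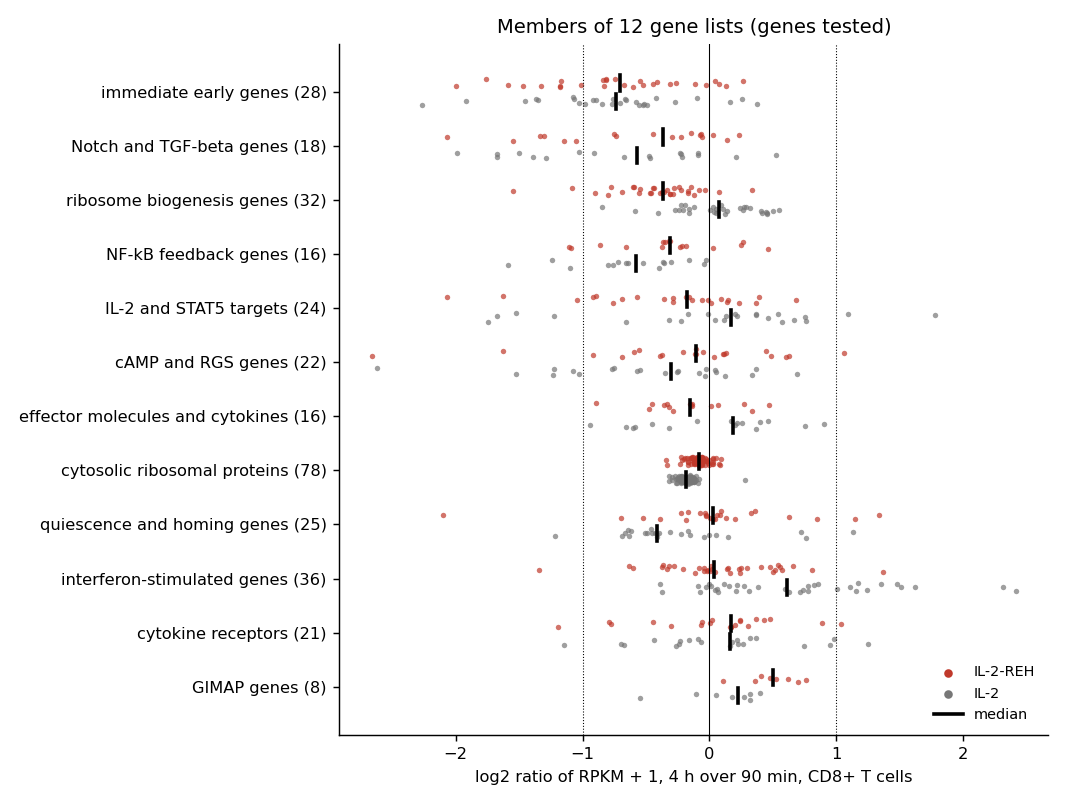
Log2 ratio of RPKM + 1, 4 hr over 90 min (horizontal axis), of every member tested in 12 gene lists, with the number of members in brackets. Red points are IL-2-REH, grey points IL-2, black bars medians and dotted lines the threshold of 1. The immediate early and the Notch and TGF-β genes lay to the left with both cytokines, the medians of ribosome biogenesis genes were -0.37 and 0.07, and those of interferon-stimulated genes 0.03 and 0.61.

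The genes with the largest increases differed in their course from the unstimulated level. Adk, adenosine kinase (chromosome 14, 21052574 to 21448569), was at 5.69 RPKM unstimulated, 4.99 and 31.8 RPKM with IL-2-REH, and 4.86 and 19.3 RPKM with IL-2. Its ratio of 2.45 was the only one above 2, and it was 1.79 with IL-2. Igf1r, the receptor for insulin-like growth factor, was at 2.54 RPKM unstimulated, 3.26 and 11.9 RPKM with IL-2-REH, and 3.36 and 7.20 RPKM with IL-2, for a ratio of 1.59. Both genes were near the unstimulated level at 90 min and above it at 4 hr, with the higher 4 hr level under IL-2-REH. The transcriptional repressor Bach2, which keeps T cells from differentiating, shared this course at 13.6 RPKM, 10.3 and 27.6 RPKM, and 10.2 and 23.5 RPKM, with a ratio of 1.34.

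Other genes were low at 90 min. Dapl1, a gene of naive CD8+ T cells, was at 167.3 RPKM unstimulated, 21.8 and 76.2 RPKM with IL-2-REH, and 24.7 and 46.2 RPKM with IL-2, for a ratio of 1.76. Myo1f, an unconventional myosin of leukocytes, was at 26.8 RPKM, then 8.85 and 29.8 RPKM with IL-2-REH, and 8.27 and 17.4 RPKM with IL-2, for a ratio of 1.64. Rsu1, an adaptor at integrin adhesions, was at 17.5 RPKM, then 5.53 and 18.6 RPKM, and 6.93 and 18.2 RPKM, for a ratio of 1.58. At 4 hr, Myo1f and Rsu1 were at about their unstimulated level and Dapl1 was still below it. The cytoskeletal gene Sept9 was at 80.6 RPKM, then 10.01 and 26.0 RPKM with IL-2-REH, and 25.9 and 63.6 RPKM with IL-2, for ratios of 1.29 and 1.27.

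Further genes among the 15 highest were Cnga1 (1.71), a cyclic nucleotide-gated channel subunit, Mllt3 (1.51), part of the super elongation complex, Invs (1.46), the ciliary protein inversin, Rab6b (1.42) and Stx2 (1.41), which act in vesicle traffic, Srgap2 (1.39), a GTPase-activating protein, and Tmevpg1 (1.39), a noncoding RNA next to Ifng. Gm5538 (1.42) and 2610035D17Rik (1.37) were also among them. Of the 30 genes at the extremes, 17 overlap another annotated gene. The share of such genes among all genes tested was not counted. The methods do not say whether strand was used, so reads in these overlaps are uncertain. The 105 higher genes also held the kinase genes Tyk2 (1.05), Ikbke (1.27) and Rps6ka1 (1.10), the antiviral deaminase Apobec3 (1.14), the phosphatase Cdc25b (1.25) and the surface protein Cd226 (1.22), which were chosen after their values were seen.

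Among 25 quiescence and homing genes, 2 were above 1, Bach2 among them, and Igfbp4 was below -1, and the median was 0.03, against -0.41 with IL-2. For 2 of the 25 the change was lower with IL-2-REH than with IL-2, where 25.6% of all genes were. Il7r, the receptor of a survival cytokine of resting T cells, was at 130 RPKM unstimulated, 223 and 403 RPKM with IL-2-REH, and 164.1 and 123.2 RPKM with IL-2, so that its ratio was 0.85 under IL-2-REH and -0.41 under IL-2. Tcf7, a factor of naive and memory T cells, was at 378 RPKM, then 346 and 444 RPKM with IL-2-REH, and 249 and 201 RPKM with IL-2. All 8 GIMAP genes, GTPases of lymphocyte survival that lie in a cluster on chromosome 6, were above 0, where 5806 of 10021 genes were. They lay between 0.11 and 0.76, and none (0) reached the threshold. Their median was 0.50, which is 0.44 relative to all genes, and 0.22 with IL-2, and in Treg pairs it was -0.07, 0.15 and 0.12.

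Interferon-stimulated genes separated the cytokines. With IL-2-REH, 1 of 36 was above 1 and 1 below -1, and the median was 0.03. With IL-2, 11 were above 1, where 0.629% of all genes were, and the median was 0.61. For 34 of the 36 the change was lower with IL-2-REH than with IL-2, where 25.6% of all genes were. Gbp2, a guanylate-binding GTPase of host defence, was at 30.9 RPKM unstimulated, 25.8 and 38.9 RPKM with IL-2-REH, and 32.7 and 166.1 RPKM with IL-2. For Gbp2 the 4 hr IL-2 library stood above the other four. Iigp1, an immunity-related GTPase, had ratios of 0.51 and 2.42, and Ly6a, a surface protein induced by interferon that was not in the list, 0.49 and 2.53. The exceptions with IL-2-REH were Ifit2 (1.37, and 0.86 with IL-2), an antiviral protein, and Oasl2 (-1.34, and -0.37 with IL-2), of the oligoadenylate synthetase family.

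Over all 10021 genes, 63 were above 1 with IL-2 (0.629%) and 137 were below -1 (1.37%), in a pair of libraries that shares none with the IL-2-REH pair. Of the 105 genes higher with IL-2-REH, 103 were above 0 with IL-2, where 42.8% of all genes were, and 20 were above 1. Of the 84 lower genes, 79 were below 0 with IL-2, where 57.2% of all genes were, and 49 (58.3%) were below -1. The change was larger in size with IL-2-REH for 100 of the 105 higher genes and 50 of the 84 lower genes, which were chosen on the IL-2-REH value. Across genes, the changes had a Pearson correlation of 0.69 and a Spearman correlation of 0.67 (n = 10021), as a description only, since genes of a library share its depth and composition. The median of the difference between the changes was 0.15, so single differences are read against that shift. The 5 lowest differences belonged to Igfbp4, Mir6236, Cdk6, Ly6a and Iigp1, and the 5 highest were small RNAs with at most 13 reads in either IL-2-REH library (Scarna9, Mir7068, Mir7675, Mir7646 and Mir6955). With 1 library a group, the difference between the cytokines could not be tested.

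**Figure D3:**
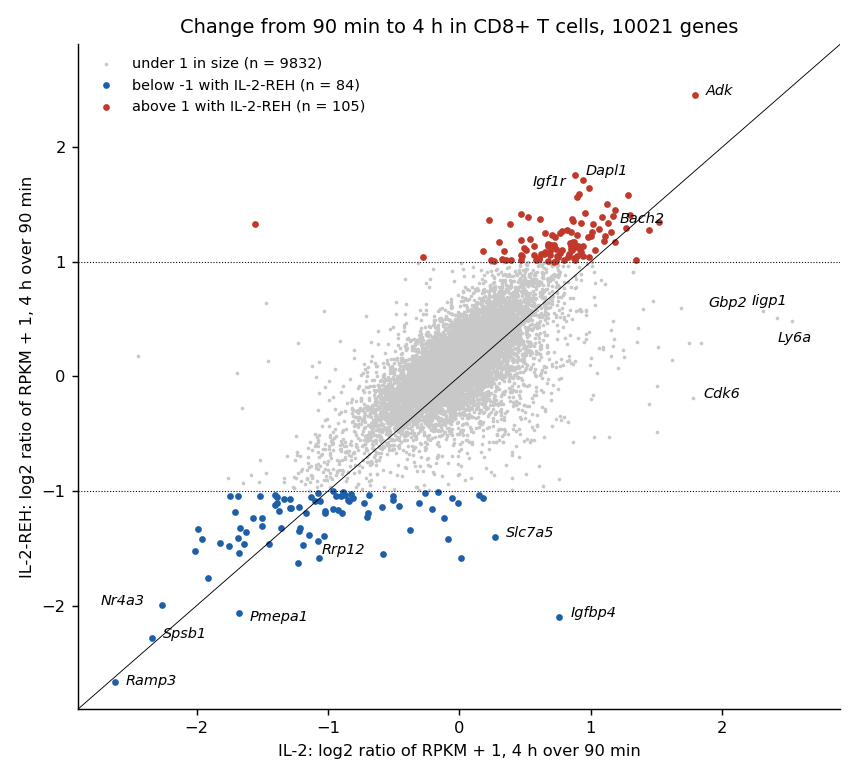
Log2 ratio of RPKM + 1, 4 hr over 90 min, with IL-2-REH (vertical axis) against IL-2 (horizontal axis) for 10021 genes, with the line of equal change. Red points are the 105 genes above 1 and blue points the 84 genes below -1 with IL-2-REH, and dotted lines mark that threshold. Ramp3, Spsb1 and Nr4a3 lay near the line, Igfbp4 and Slc7a5 were below -1 with IL-2-REH alone, and Gbp2, Iigp1 and Ly6a, like Cdk6, were above 1 with IL-2 alone.

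The same comparison in Tregs is replicated and had no part in the choice of the CD8+ genes. Under edgeR without a block, 0 of 15009 genes were called at an adjusted p under 0.05 in Tregs, with 2188 at an unadjusted p under 0.05 and a lowest adjusted p of 0.196, whereas DESeq2 called 251. Without replicate 1, edgeR called 574 genes, and without replicate 2 or 3 it called 0. With the replicate number as a block, edgeR called 6 genes, 1 higher (Frmd5, 0.00666% of those tested) and 5 lower (Per2, Vcam1, D8Ertd82e, Dscam and Frmd4b, 0.0333%). Of these 6, only Per2, Vcam1 and D8Ertd82e passed the RPKM filter in CD8+ T cells, and none (0) of the 3 was past the threshold there. The clock gene Per2 was nearest to it at -0.98 in CD8+ T cells, and the adhesion gene Vcam1, which is also a macrophage marker, was at -0.91.

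In direction, the CD8+ genes moved with the Tregs. Of the 105 higher genes, 77 (73.3%) were higher in every one of the 3 same-numbered Treg pairs, against 26.6% of all genes, and of the 84 lower genes, 63 (75%) were lower in every pair, against 20.2%. The correlation of the CD8+ change with each pair across genes was 0.51, 0.56 and 0.44, and the Treg pairs correlated with each other between 0.46 and 0.66, as descriptions over 10021 genes. Of the CD8+ genes past the threshold, DESeq2 called 22 in Tregs, where it called 1.67% of all genes, and edgeR without replicate 1 called 60, where it called 3.96%. Each had the CD8+ direction, and so had 225 of all 251 and 516 of all 574 genes called. Nr4a3 had log2 ratios of -2.56, -1.79 and -3.06 in the Treg pairs and -1.99 in CD8+ T cells, Nr4a2 -2.11, -1.02 and -1.69, and Egr2 -1.51, -1.48 and -1.67. Among higher genes, Stx2 was at 0.81, 1.76 and 1.37. Adk was at 2.53 and 2.28 in pairs 2 and 3 and at -0.31 in pair 1, where its 90 min library was at 54.6 RPKM and the other two at 11.4 and 7.81 RPKM.

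Some of the genes with the largest CD8+ changes did not move alike in every Treg pair. Ramp3 was at -1.19, 0.10 and 0.22, and Odc1 at -0.67, 0.35 and 0.08. Tmevpg1 was at 0.20, -0.08 and -0.02, and Dapl1 at -0.09, -0.15 and 1.02. Opposite to CD8+ T cells in every Treg pair were 5 of the higher genes, Art2b, Cd226, Gm1966, Gm4759 and St8sia6, and 1 lower gene, Ly6c1. Cd226, an activating receptor of cytotoxic lymphocytes, had a ratio of 1.22 in CD8+ T cells and of -0.21, -0.41 and -1.20 in the Treg pairs. With 1 CD8+ library a group, the difference between the cell types could not be tested.

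**Figure D4:**
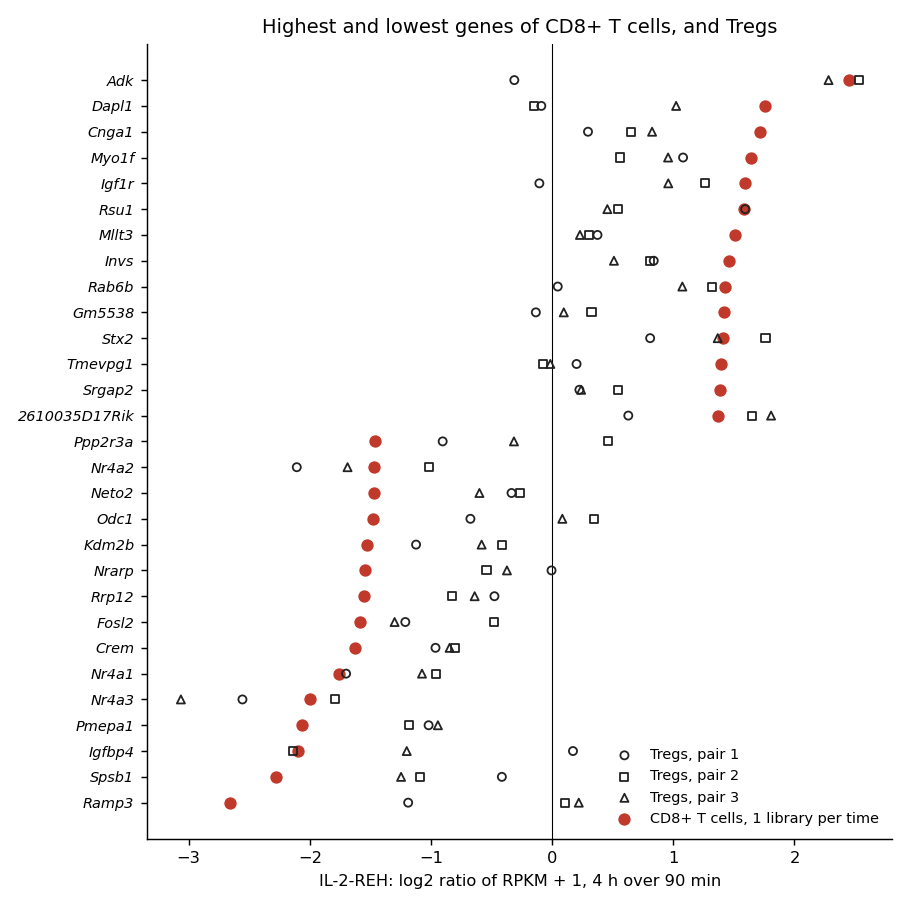
Log2 ratio of RPKM + 1, 4 hr over 90 min of IL-2-REH (horizontal axis), for the 15 highest and 15 lowest genes of CD8+ T cells, with 1 of the highest not drawn. Filled red circles are CD8+ T cells (1 library per time) and open symbols the 3 same-numbered pairs of Treg libraries. All Treg pairs had the CD8+ sign for 10 of the 15 highest and 11 of the 15 lowest genes, and Ramp3, Odc1 and Adk had pairs on both sides of 0.

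Lower genes of macrophages stood apart from the T cell genes in level. C1qa (-1.14) and C1qb (-1.01), subunits of complement C1q, and Fcna (-1.03), a ficolin, were at 1.30 to 1.48 RPKM at 90 min and under 0.2 RPKM at 4 hr. C1qa was at 3.81 RPKM unstimulated and went from 1.52 to 0.0819 RPKM with IL-2. The means of these 3 genes over the 5 libraries reached 1 RPKM through the unstimulated library. Among other macrophage markers, the ratio was -0.56 for Csf1r, -0.05 for Lyz2, 0.23 for Cd68 and 0.24 for Itgam, and the part of macrophages in other ratios was not tested. Micro and small nucleolar RNAs made up 9 of the 84 lower and 3 of the 105 higher genes. Of the genes past the threshold, 8 lower and 3 higher genes had under 50 reads in the deeper library. The share of either kind among all genes tested was not counted, so these counts are a description only. Short RNAs of this kind often lie within other genes, whose reads cannot be told apart from theirs.

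Higher genes spanned more of the genome than the rest. Their median annotated span was 52.1 kb, against 20.8 kb for lower genes and 20.9 kb for the 9885 tested genes with coordinates. A span over 100 kb was found for 29.1% of higher genes, 19.0% of lower genes and 9.50% of all. The share of genes above 1 was 0.435% under 10 kb, 0.734% from 10 to 30 kb, 1.29% from 30 to 100 kb, 2.99% from 100 to 300 kb and 4.81% over 300 kb, where 5 of 104 genes were above 1. The share of lower genes had no such order, with 0.979%, 0.646%, 0.683%, 1.80% and 0.962%. Adk spans 396 kb, and Igf1r, Mllt3 and Bach2 each span over 200 kb. The medians of all genes in these classes differed less, from 0.03 (30 to 100 kb) to 0.20 (over 300 kb). With IL-2, the median was -0.003 under 10 kb, -0.13 from 30 to 100 kb and -0.03 over 300 kb. In Treg pairs 1, 2 and 3, the medians were -0.09, 0.20 and 0.42 under 10 kb. Over 300 kb they were 0.05, -0.19 and -0.43.

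**Figure D5:**
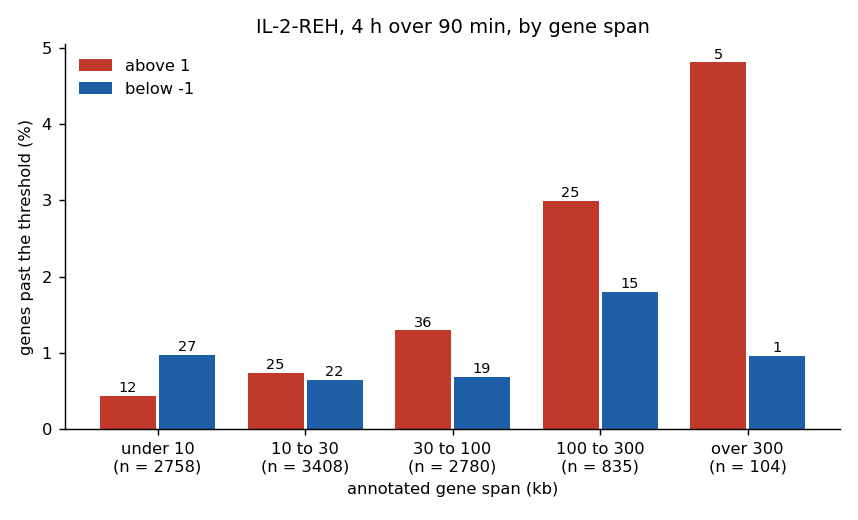
Percent of genes above 1 (red) and below -1 (blue) in the IL-2-REH comparison, in 5 classes of annotated gene span in kb, with the number of such genes over each bar and the number tested under it. The red bars rise from 0.435% to 4.81%, and the blue bars stay between 0.646% and 1.80%.

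The remaining lists held few genes past the threshold. Over all genes tested, 1.05% were above 1 and 0.838% below -1. At such shares, a count of 0 in these lists says little about them. Cytokine receptors gave Ccr2 (1.04), a chemokine receptor that was under the threshold after centring, and Il12rb2 (-1.20), a chain of the IL-12 receptor, among 21. Factors of T cell activation gave Zeb1 (-1.24), a repressor of epithelial genes that acts in memory T cells, among 20. Zeb1 was at 10.7 RPKM unstimulated, 55.4 and 22.9 RPKM with IL-2-REH, and 59.3 and 19.3 RPKM with IL-2. Genes of cAMP signalling and RGS proteins gave the adenylyl cyclase Adcy7 (1.06) beside Ramp3 and Crem, among 22 with a median of -0.11. None (0) of 30 genes of T cell receptor signalling, 33 of the cell cycle, 25 of cholesterol synthesis, 19 of glycolysis and hypoxia, 76 of oxidative phosphorylation, 37 proteasome subunits, 24 redox genes, 20 mRNA decay regulators, 18 heat shock genes, 17 of MHC class I presentation, 15 p53 targets and 14 of the BCL2 family was past the threshold, and their medians lay between -0.18 and 0.18. The 10 clock genes had none (0) past the threshold, but 8 were below 0, where 42.1% of all genes were, and their median was -0.36. The 9 small nucleolar host genes were all below 0, against the same 42.1%, with a median of -0.21. The 11 glucocorticoid-responsive genes (median -0.08) and 6 histone genes (0.09) also had none (0), and the 13 MAPK feedback and 22 amino acid genes had only Dusp2 and Slc7a5.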

How the data were processed

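RNA of 20 libraries was sequenced as 50 bp single-end reads. The authors mapped them to mm10 with Bowtie2 2.2.6 and TopHat2 2.1.1, per the submitters' processing notes, and deposited 2 values for each of 31682 RefSeq transcripts, the unnormalized read count over exons and the RPKM. For each of 23992 symbols, the transcript with the highest read total was used. Members, gene lists and tests were chosen with earlier results of these data known. CD8+ ratios are log2 of RPKM + 1 in genes whose RPKM averaged 1 or more over the 5 CD8+ libraries, with exact 95% binomial intervals of the read counts. A transcript's RPKM divides by exon length, so small RNAs reach 1 RPKM with few reads.

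Treg counts were tested with edgeR 4.0.16 (TMM, filterByExpr, glmQLFit and glmQLFTest, Benjamini-Hochberg adjustment) in R 4.3.3 over 15 libraries, with DESeq2 1.42.0 and a replicate block as alternatives, and the script was tested on simulated data. Same-numbered Treg libraries deviated together from their group means (correlations of 0.72, 0.61 and 0.48), so the numbers, taken from the sample titles, were read as pairs. Other alternatives were a pseudocount of 0.1, a threshold of 2, a minimum mean RPKM of 5 or none, libraries centred on their medians, TMM-scaled CPM with a prior count of 2, the longest transcript, and leaving out each Treg replicate.

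Named genes were the 15 highest and 15 lowest ratios with at least 50 reads in the deeper library, of each list up to 4 members past the threshold and the member with the most reads, the genes the study names for CD8+ T cells, and the 5 highest and 5 lowest differences from IL-2. Other genes named were chosen after their values were seen. Promoter sequences and gene spans came from RefSeq (GRCm38.p6), which held promoters for 52 of the 84 lower and 71 of the 105 higher genes. Nothing says whether Treg libraries of a group came from separate mice, so their p-values may measure technical spread. Some genes that this rule names are not reported here.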

Additional observations from a re-analysis of the deposited data

Results flagged for a closer look

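Of the genes past the threshold, 7 moved in opposite directions in the IL-2-REH and the IL-2 pair of CD8+ libraries. Igfbp4 had a log2 ratio of -2.10 under IL-2-REH and 0.76 under IL-2, Slc7a5 had -1.40 and 0.27, Mthfd1 had -1.06 and 0.18, and Fam46a had 1.04 and -0.27. The other three rest on few reads: Mir7068 had 1.33 and -1.56 (1 and 11 reads with IL-2-REH), Snord73a had -1.58 and 0.01 (11 and 1 reads), and Snora34 had -1.03 and 0.15 (20 and 7 reads).

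A further 6 genes moved with IL-2-REH in CD8+ T cells against all 3 same-numbered Treg pairs. Art2b had a log2 ratio of 1.25 in CD8+ T cells and of -0.36, -0.08 and -0.51 in Tregs. Cd226 had 1.22 and then -0.21, -0.41 and -1.20. Gm1966 (1.10), Gm4759 (1.08) and St8sia6 (1.36) were likewise higher in CD8+ T cells and lower in each Treg pair. Ly6c1 had -1.06 in CD8+ T cells and 0.89, 0.00493 and 0.86 in Tregs. Each CD8+ group has 1 library, so these differences between cytokines and between cell types were not tested.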

How the results depend on the processing

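Of the 92 named genes, 48 were past the threshold of 1. None (0) of these 48 changed direction under another scaling, pseudocount or transcript, and only Ccr2 fell short of the threshold, when libraries were centred. Of the others, Lta (0.01) and Mir7646 (0.03) changed sign when libraries were centred and with TMM-scaled CPM, and Gzmb and Mir7675 passed the threshold under an alternative. The number of higher and lower genes with IL-2-REH, 105 and 84, moved to 1 and 4 at a threshold of 2. It moved to 309 and 171 with a pseudocount of 0.1. With TMM-scaled CPM, which replaces the pseudocount as well as the scaling, it moved to 268 and 215. With a mean RPKM of at least 5, 66 higher genes were left, since fewer genes were tested. With IL-2, the counts of 63 and 137 moved to 146 and 223 with a pseudocount of 0.1. In Tregs, the count of 0 moved to 6 with the replicate block and to 251 with DESeq2, and leaving out a replicate gave from 0 to 574. Of the CD8+ genes, 0 were called in Tregs, 22 with DESeq2 and from 0 to 60 when a replicate was left out, the 60 without replicate 1. The cause of these differences between tools and replicates was not tested. The replicate block changed no other call. Genes with few reads are limited by depth, and CD8+ ratios by the lack of replicates.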
